A study of Drosophila melanogaster with 185 samples.

Results

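The 5 genes capa, Pdf, Ccap, Dh44 and Ast each encode a precursor of secreted neuropeptides. They were chosen by their readout among 15682 genes in single classes of Drosophila melanogaster brain neurons, namely the number of neuron libraries that carried their reads and the CPM (a gene's reads scaled to a common total of reads counted to genes) in those libraries. Those levels are therefore given as a description, without a test. Tests were run on the effect of training and on whole brains against whole flies.

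The study took RNA from 7 classes of neurons in or linked to the mushroom body, the centre of odor memory, after aversive odor training, to describe gene expression by cell class and what follows memory formation. The data comprised 72 neuron libraries (35 from trained flies and 37 from controls), 2 of whole brains and 27 of whole flies, held in 185 samples, since 84 of the libraries had 2 sequencing runs each. Trained flies received an odor together with 12 shocks of 60 V in each of 8 blocks separated by 10 min breaks, and control flies received the shocks before the odor. Labelled neurons were drawn into a patch pipette from live flies, so a library holds the RNA of hand-picked cells, and the number of cells differed between classes.

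All neuron groups shared the w1118 background and a UAS-eGFP reporter, and a GAL4 driver defined each class. The driver was G0431-GAL4 for DAL (5 trained and 5 control libraries), R71D08-GAL4 for V2 (5 and 5), CG0239-GAL4 for V3 (5 and 5), 3-86-GAL4 for the class of that name (4 and 6), R27G01-GAL4 for the class of that name (4 and 4), NP1131-GAL4 for gamma Kenyon cells (6 and 6) and c739-GAL4 for alpha/beta Kenyon cells (6 and 6). The labels give 4 cells per library for DAL, V3, 3-86 and R27G01, 12 for V2 and more than 100 for both Kenyon cell classes. Brains came from UAS-GFP flies that carried no driver, and whole flies from the same reporter stock (3 libraries) or from 1 of the 7 driver crosses (24 libraries). Ages and sexes were not given in the labels, and the labels do not say which trained and control libraries form a pair.

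Neuropeptides are cut from precursor proteins in the secretory pathway, amidated, stored in dense-core vesicles and released to act mostly on G protein-coupled receptors of other cells. In flies most peptide genes are transcribed in small, fixed sets of neurons or gut endocrine cells. capa encodes CAPA peptides, which act on the renal tubules through capaR. Pdf encodes the pigment-dispersing factor, the output peptide of a subset of brain clock neurons, received by Pdfr. Ccap encodes the crustacean cardioactive peptide, known for its part in ecdysis behaviour and heart rate, received by CcapR. Dh44 encodes a diuretic hormone related to corticotropin-releasing factor, received by Dh44-R1 and Dh44-R2. Ast, the older symbol of AstA, encodes allatostatin A, which inhibits feeding and is received by AlstR. All 5 genes lie on chromosome arm 3R in the RefSeq annotation.

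Depth limited how small a level could be seen. Neuron libraries held 1689680 to 22904425 reads, brains 1333577 and 2272595 reads and whole flies 931967 to 16213198 reads, so that 1 read was worth 0.0437 CPM in the deepest neuron library and 0.592 CPM in the shallowest. The runs of 81 of the 84 libraries with 2 runs differed by no more than counting noise, with chi-square per degree of freedom of 0.976 to 1.04. The runs of the libraries labelled 3-86 trained 2 (317.1) and 3-86 control 3 (229.5) did not match, and run 2 of the one labelled trained 2 matched run 1 of the one labelled control 3 (1.06). The 2 files of alpha/beta control library 6 also differed (35.3) and were summed as 1 library. The summed CPM of 5 pan-neuronal genes was 2260 to 21054 in neurons, 16862 and 19989 in brains and 63.2 to 632 in whole flies. The summed CPM of 4 fat body genes, yolk proteins among them, was 11.3 to 130749 in neurons. That of 4 photoreceptor genes was 0.227 to 45667 in neurons, highest in V3 trained library 1, and 1591 to 8576 in whole flies. The part of RNA from outside the picked cells in the peptide reads was not tested.

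Dh44 was read in all 72 neuron libraries, Ast in 45, capa and Pdf in 19 each and Ccap in 15, where a library carried a gene if it had at least 1 read. In whole flies the order was different: Ast was read in 26 of 27 libraries, capa in 25, Pdf in 20, Dh44 in 12 and Ccap in 9. At 10 reads or more, Dh44 was carried by 68 neuron libraries, Ast by 35, capa by 12, Pdf by 11 and Ccap by 9. Each of the 3 rarest genes reached 10 CPM in only 6 neuron libraries, against 62 for Dh44 and 21 for Ast. Trained and control libraries carried the genes as follows: capa was read in 10 of 35 trained and 9 of 37 control libraries, Pdf in 7 trained and 12 control, Ccap in 8 trained and 7 control, Dh44 in all, and Ast in 22 trained and 23 control libraries. Of 56 neuron libraries with 2 matching runs, capa was read in both runs in 7 of the 8 that had it, Pdf in 10 of 12, Ccap in 12 of 14, Dh44 in 54 of 56 and Ast in 37 of 41. Where 1 run had none, the other had at most 4 reads.

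**Figure D1:**
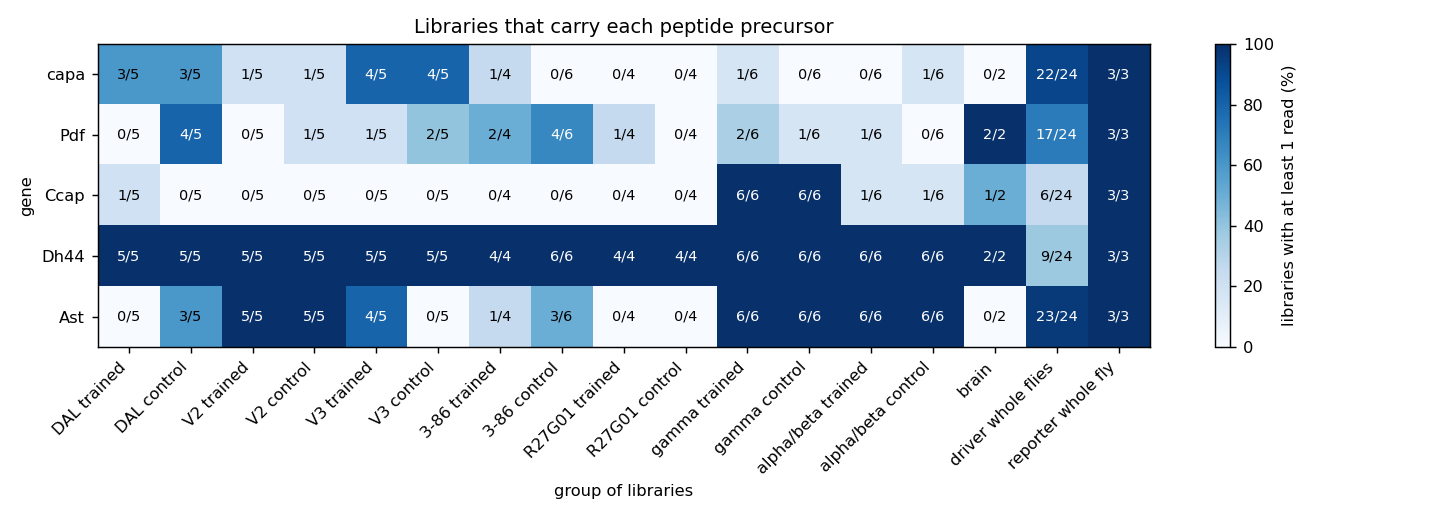
Number of libraries with at least 1 read of each gene over the number of libraries in each group; the shade gives the same as a percentage. Dh44 fills every neuron column, Ccap is full in both gamma columns, and capa and Ast are empty in the brain column while most driver whole flies (22 and 23 of 24) carry them.

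Dh44 differed between classes in level rather than in presence. It was highest in R27G01, with 43.7, 831, 660 and 117 CPM in trained libraries and 362, 94.1, 513 and 432 CPM in control libraries. Trained and control libraries overlapped there, and the lowest R27G01 value lay above the medians of V3 and alpha/beta. By the median over trained and control libraries together, R27G01 (397 CPM, n = 8) came first, followed by V2 (99.7 CPM, n = 10), 3-86 (94.2 CPM, n = 10), gamma (71.7 CPM, n = 12), DAL (45.1 CPM, n = 10), V3 (38.5 CPM, n = 10) and alpha/beta (31.5 CPM, n = 12). The ranges of all neighbours in this order overlapped. As a ratio of highest to lowest, 3-86 libraries (0.265 to 443 CPM) and V3 libraries (0.554 to 144 CPM) had the widest ranges and gamma libraries (27.6 to 130 CPM) the narrowest. Whole flies had 0, 0 and 4.57 CPM as lowest, median and highest value (n = 27). Dh44 overlaps the gene Fst in the RefSeq annotation. Fst had reads in 11 of 72 neuron libraries, at no more than 2.96 CPM, and in all 27 whole flies, at 1.38 to 224 CPM.

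capa was read most often and at its highest levels in V3 libraries. V3 trained libraries had 848, 525, 9.33, 0 and 7.20 CPM, and V3 control libraries had 47.6, 1299, 0.701, 0 and 0.579 CPM. Thus 8 of 10 V3 libraries carried it, 3 of them above 500 CPM and the other 7 below 50 CPM, and high and low libraries occurred under both treatments. The highest, V3 control library 2 with 10176 reads, held 46.3% of the CPM summed over all neuron libraries, and the top 3 libraries held 95.2%. Outside V3, V2 control library 4 had 42.2 CPM and 3-86 trained library 4 had 14.9 CPM, which was the only one of 10 libraries of its class with a read. DAL carried capa in 6 of 10 libraries at no more than 3.44 CPM. The R27G01 libraries had no read in 8, for which 3 reads over the class correspond to 0.0506 CPM. Kenyon cells had 4 reads in 1 of 12 gamma libraries and 2 reads in 1 of 12 alpha/beta libraries. Whole flies had 0, 1.42 and 6.74 CPM as lowest, median and highest value.

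Pdf was scattered: it occurred in every class, and in no class did more than 6 of 10 libraries carry it. V3 control library 1 alone, with 2191 reads and 358 CPM, held 77.9% of the CPM summed over neurons. The next values were 23.5 CPM in alpha/beta trained library 5, 16.9 CPM in 3-86 trained library 1, 15.9 CPM in V3 trained library 1, 11.9 CPM in gamma trained library 6 and 11.5 CPM in DAL control library 2. Each of those 6 libraries belonged to a different group. The class with most carriers was 3-86, where 2 of 4 trained and 4 of 6 control libraries had reads, of which those with mismatched runs contributed 1 and 2 reads. In DAL no trained library had a read, whereas the control libraries had 3.78, 11.5, 0, 1.57 and 0.693 CPM. The groups overlapped at 0, and Pdf did not pass the expression filter in DAL. Without the filter, edgeR gave an adjusted p of 0.377 there.

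Ccap was read in all 12 gamma Kenyon cell libraries and in only 3 of the 60 others. Gamma trained libraries had 0.280, 38.3 and 229 CPM as lowest, median and highest value, and gamma control libraries 0.143, 1.54 and 28.6 CPM (n = 6 each). The reads were uneven within the class: 6 of 12 libraries had at least 10 reads, and the others had 1 to 7. The 3 carriers outside gamma were alpha/beta control library 4 (85.3 CPM), alpha/beta trained library 4 (7.28 CPM) and DAL trained library 2 (2.92 CPM). The 38 libraries of V2, V3, 3-86 and R27G01 had none. Across the 72 libraries the Ccap level went with the number of genes detected (Spearman rho 0.64) and with depth (rho 0.46), and gamma libraries had the highest medians of both. The part of depth in that pattern was not tested. Ccap overlaps CG6972 in the RefSeq annotation, which had reads in 8 neuron libraries at no more than 2.12 CPM and in 25 of 27 whole flies.

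Ast was read in every Kenyon cell and V2 library: all 12 gamma, all 12 alpha/beta and all 10 V2 libraries carried it, against 11 of the other 38. Gamma had the most even values, with 4.31, 24.8 and 35.2 CPM as lowest, median and highest value in trained libraries and 5.54, 23.7 and 59.2 CPM in control libraries. Alpha/beta trained libraries had 0.592, 7.24 and 65.1 CPM, and control libraries 0.553, 15.8 and 98.3 CPM. V2 split sharply: trained libraries had 418, 10.2, 0.518, 7.68 and 4.86 CPM and control libraries 0.308, 1.95, 0.148, 517 and 0.769 CPM, so that 1 library in each group lay over 400 CPM and none of the other 8 exceeded 10.2 CPM. In V3, 4 of 5 trained libraries carried Ast (28.4, 0, 0.128, 7.91 and 64.7 CPM) and none of the 5 controls did. In DAL the reverse was seen, with no trained library and control libraries at 0, 3.19, 67.5, 0 and 0.578 CPM. No R27G01 library had a read. Across neurons Ast went with the summed CPM of 5 Kenyon cell genes (Spearman rho 0.69, n = 72) and against the summed CPM of glial (rho -0.60) and fat body genes (rho -0.58). These sums also differed between the classes, and their part in the Ast levels was not tested.

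**Figure D2:**
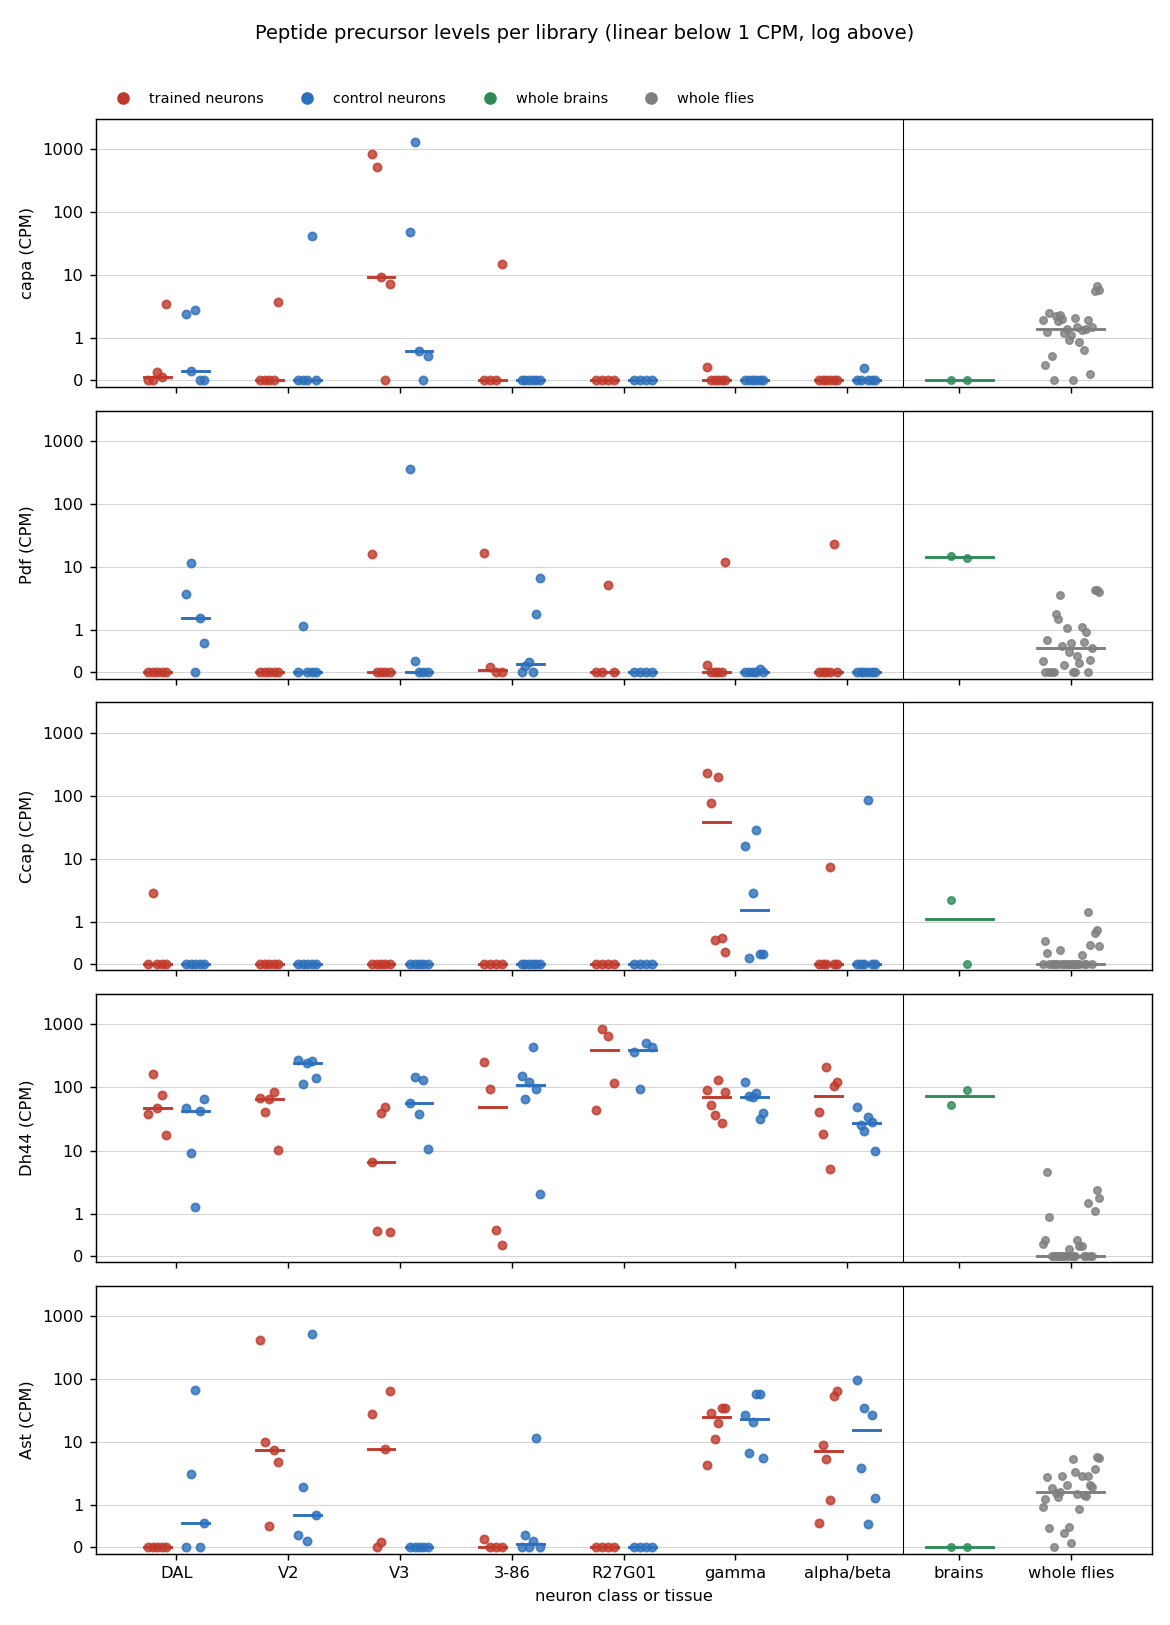
CPM of each gene in every library, by class, with trained libraries (red) left of control libraries (blue), then whole brains (green) and whole flies (grey); short bars are medians and the axis is linear below 1 CPM and logarithmic above. capa exceeds 500 CPM in 3 V3 libraries, Pdf exceeds 100 CPM in 1, and Dh44 is above 0 in all 72 neuron libraries while its median in whole flies is 0.

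Whole flies of the driver crosses and of the reporter stock were set side by side without a test. The mean of each of the 5 genes was lower in the driver crosses. How many of all genes were likewise lower there was not counted. Marker sums also differed between these flies: pan-neuronal genes summed to a median of 166 CPM in driver crosses and 460 CPM in reporter flies, Kenyon cell genes to 162 CPM in driver crosses and 419 CPM in reporter flies, and glial genes to 379 CPM in driver crosses and 782 CPM in reporter flies. Gut genes summed to a median of 10787 CPM in driver crosses and 1953 CPM in reporter flies, and the part of these differences in the peptide levels was not tested. capa averaged 1.31 ± 0.74 CPM in driver crosses and 6.11 ± 0.56 CPM in reporter flies (SD, n = 24 and 3), and Pdf averaged 0.636 ± 0.814 CPM in driver crosses and 4.20 ± 0.23 CPM in reporter flies. Ast averaged 1.74 ± 1.22 CPM in driver crosses and 5.07 ± 1.17 CPM in reporter flies, and Dh44 averaged 0.357 ± 0.961 CPM in driver crosses and 1.75 ± 0.62 CPM in reporter flies. Ccap averaged 0.136 ± 0.322 CPM in driver crosses and 0.664 ± 0.205 CPM in reporter flies. All 3 reporter libraries carried all 5 genes.

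At 10 CPM or more, most libraries had 1 of the 5 genes. Of the 72 neuron libraries, 44 had exactly 1 of them at that level, 15 had 2, 9 had 3 and 4 had none. Dh44 and Ast were both at 10 CPM or more in 18 libraries, and capa and Ccap in 0. Dh44 and Ccap were so in 6, which were all 6 libraries with Ccap at that level. Dh44 was at that level in 62 of all 72 libraries, Ast in 21 and capa in 6. Whether these overlaps differ from what such shares give was not tested. Reads of all 5 were found in 1 library, gamma trained library 1.

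Among 47 peptide precursors looked up in the files, the counts of carrying libraries spread widely. Of the 42 others, 3 (Dh31, Nplp1 and Nplp2) were read in all 72 libraries like Dh44, 23 in fewer than 36 libraries, and 3 (Gpa2, Gpb5 and RYamide) in none. The number of libraries that carried capa, Pdf or Ccap was close to that of Akh (21), CG13936 (17), Ptth (14) and Eh (12). Of all 15682 genes, 2044 had reads in every neuron library.

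**Figure D3:**
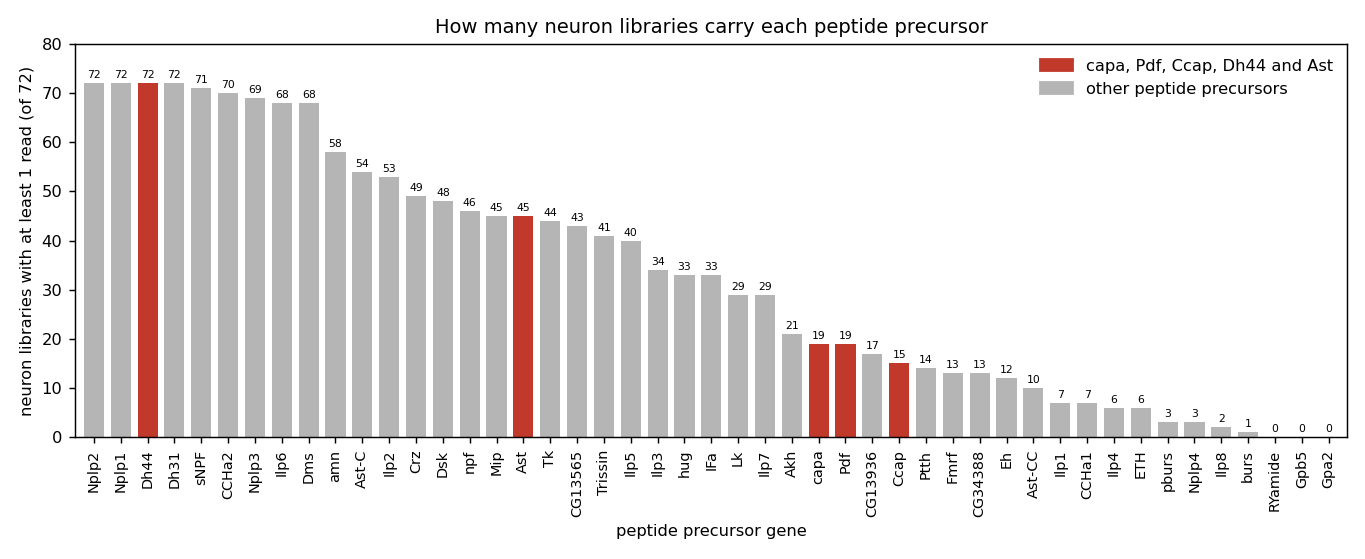
Number of the 72 neuron libraries with at least 1 read of each of 47 peptide precursor genes, as bars in falling order; red marks capa (19), Pdf (19), Ccap (15), Dh44 (72) and Ast (45). The red bars lie at the left end, in the middle and in the right part of the order.

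The receptors were spread over more libraries than most of the peptides. AlstR, an allatostatin A receptor, was read in 70 of 72 neuron libraries (69.5 ± 67.6 CPM, SD), Dh44-R2 in 71 (48.4 ± 31.7 CPM), Pdfr in 64 (mean 8.26 CPM, range 0 to 159 CPM), Dh44-R1 in 56 (29.9 ± 41.7 CPM), CcapR in 49 (8.36 ± 16.3 CPM) and capaR in 27 (1.79 ± 6.53 CPM). Peptide and receptor reads did not always share a class. R27G01, with the highest Dh44 level, carried Dh44-R1 in 1 of 8 libraries but Dh44-R2 in all 8, while V2 and both Kenyon cell classes carried both receptors in every library. V3, with most of the capa reads, carried capaR in 1 of 10 libraries. All 12 gamma libraries carried CcapR (8.49 ± 3.91 CPM). AlstR was highest in V2 (155 ± 87.7 CPM, n = 10) and lowest in alpha/beta and R27G01 (mean 25.9 CPM, range 3.41 to 55.2 CPM, n = 12, and mean 21.0 CPM, range 0 to 86.2 CPM, n = 8).

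The enzymes that mature peptides were read almost everywhere, whether or not a library carried the 5 precursors. Of 9 processing genes in the files, 7 had reads in all 72 neuron libraries, including the prohormone convertase amon (998 ± 508 CPM), the amidating enzymes Phm (292 ± 191 CPM) and Pal2 (703 ± 456 CPM) and the dense-core vesicle protein IA-2 (10128 ± 5239 CPM). Among the remaining genes was dimm, the transcription factor of neuroendocrine cells, which was read in 25 libraries. DAL had most of it, in 8 of 10 libraries at up to 49.1 CPM, and V3 and R27G01 had none. Of 8 clock genes, which Pdf neurons share with other cells, Pdp1 was read in 72 neuron libraries, cwo in 71, tim in 70, vri in 65, cry and cyc in 63 each, per in 57 and Clk in 20, beside 19 for Pdf.

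The effect of training was first tested within each class on trained and control libraries of that class, with the quasi-likelihood method of edgeR and p-values adjusted after Benjamini and Hochberg over every gene tested. Of the genes that passed the expression filter, Dh44 was tested in all 7 classes, Ast in V2, gamma and alpha/beta, capa in V3 and Ccap in gamma, and Pdf passed in none. None of these 12 tests passed an adjusted p of 0.05, the smallest being 0.425. Without the filter 17 more pairs of gene and class could be fitted, and none of them passed either, the smallest adjusted p being 0.291. Among these, Ast had adjusted p of 0.377 in DAL, where its reads were in controls, and 0.4 in V3, where they were in trained libraries. The share of all genes called was 0% in every class (of 6953 genes in DAL, 7281 in V2, 6858 in V3, 6692 in 3-86, 5548 in R27G01, 7840 in gamma and 7228 in alpha/beta), although 100 to 440 genes per class had an unadjusted p under 0.05, and DESeq2's Wald test called 0 to 37.

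Dh44 in V2 was the 1 of these 12 pairs whose trained and control libraries did not overlap. How many of all 7281 genes tested in V2 separated likewise was not counted. Of those genes, 393 had an unadjusted p under 0.05 by edgeR, among which Dh44 had rank 13. Trained V2 libraries had 67.3, 40.8, 66.3, 85.7 and 10.2 CPM, and control V2 libraries had 272, 114, 240, 259 and 141 CPM. Every trained library was below every control, and the log2 fold change was -1.93 (SE 0.47, n = 5 each). The edgeR p was 0.000846 and the adjusted p 0.425, whereas DESeq2's Wald test gave an adjusted p of 0.0278 with the same fold change (-1.92). Leaving out each library in turn kept the log2 fold change between -2.18 and -1.66 and the edgeR adjusted p between 0.365 and 0.779. Other values also differed between trained and control V2 libraries. The 8 processing genes tested there had a median log2 fold change of -0.35, and none was called. Among them, svr (log2 fold change -0.86, SE 0.20), IA-2 (-0.94, SE 0.23) and amon (lower in trained libraries, unadjusted p 0.000269) had edgeR adjusted p of 0.406 to 0.425. The summed CPM of Kenyon cell genes was 2679, 7864, 5330, 5065 and 2642 in trained V2 libraries, and 2145, 3424, 2866, 2776 and 2835 in control V2 libraries. Trained and control libraries overlapped in this sum. The part of the processing genes and of this sum in the Dh44 difference was not tested.

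In the other classes trained and control ranges of Dh44 overlapped. In alpha/beta, trained libraries had 5.04, 73.0 and 213 CPM as lowest, median and highest value and controls 9.82, 26.8 and 48.0 CPM, with a log2 fold change of 1.64 (SE 0.69, adjusted p 0.999 by edgeR). In V3, trained libraries had 6.59, 0.577, 38.9, 49.1 and 0.554 CPM and controls 57.6, 144, 38.1, 131 and 10.4 CPM (log2 fold change -1.91, SE 1.13). Both directions thus occurred. The log2 fold change was 1.02 (SE 0.89) in DAL, -0.85 (SE 1.28) in 3-86, 0.34 (SE 0.67) in R27G01 and -0.11 (SE 0.36) in gamma. In 3-86 the sample sheet lists a library named like trained library 4 as a control. Without that library the log2 fold change was -0.42.

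For the rarer genes the spread between libraries of a group exceeded the difference between groups. Ccap in gamma had a log2 fold change of 3.22 (SE 1.78, n = 6 each, adjusted p 0.796 by edgeR), with 3 trained and 3 control libraries at 10 reads or more. capa in V3 had a log2 fold change of 0.12 (SE 2.50) and Ast in V2 one of -0.18 (SE 2.41), each set by 1 or 2 libraries per group. Ast differed by -0.56 (SE 0.67) in gamma and by -0.37 (SE 1.31) in alpha/beta.

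**Figure D4:**
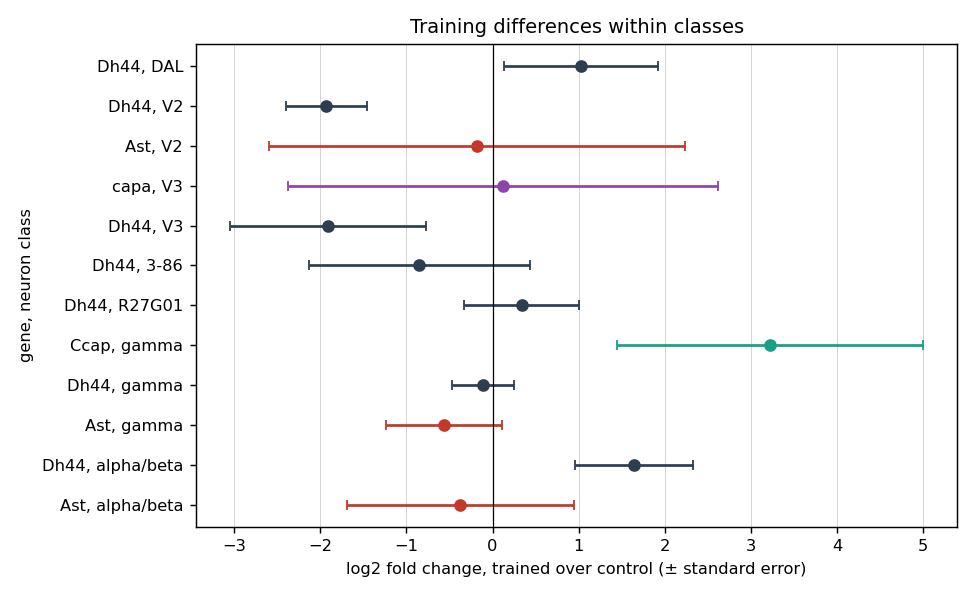
Log2 fold change of trained over control libraries within a class for the 12 pairs of gene and class that passed the expression filter; points are edgeR estimates and bars 1 standard error. Dh44 in V2 (-1.93) lies farthest from 0 relative to its bar, and the bars of capa in V3 and Ast in V2 span more than 2 log2 units on either side.

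Averaged over the 7 classes, Dh44 did not differ beyond the spread between libraries (log2 fold change -0.27, SE 0.37, adjusted p 1 by edgeR), while 0.884% of 9847 genes were called. The average could not be estimated for capa, Pdf, Ccap and Ast, because some classes had no read in a group and the standard errors were 2414 or more. An additive model of class plus training, in which 0.0305% of genes were called, gave log2 fold changes of 0.20 (SE 0.92) for capa, 1.46 (SE 1.73) for Pdf, 1.11 (SE 1.08) for Ccap and -0.87 (SE 1.03) for Ast, with adjusted p of 0.999 each. Of the 7 receptors, 9 processing genes and 8 clock genes, none was called in the average over classes. For those with no read in a group, such as capaR and dimm in R27G01, the average could likewise not be estimated. No call was possible for them, and the list medians below include them. Of 30 other peptide precursors tested, 1 was called: Mip, the myoinhibiting peptide precursor, had 0, 0.337 and 120 CPM as lowest, median and highest value in trained libraries and 0, 0.241 and 958 CPM in control libraries (log2 fold change -4.68, SE 1.07, adjusted p 0.0183). Its reads occurred in 22 of 35 trained and 23 of 37 control libraries, and its adjusted p was 0.58 in the additive model. The median log2 fold change was -0.53 for the receptors, -0.14 for the processing genes, -0.31 for the other precursors and 0.07 for the clock genes, against -0.08 for all genes.

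Whether the training difference differed between classes was tested by the 6 class by training terms together, for which 1.24% of 9847 genes were called. Pdf and Ast were among those called (edgeR adjusted p 0.0406 for both), and capa (0.49), Ccap (0.695) and Dh44 (0.387) were not. Which libraries set these calls was not tested. In DAL both genes were read in controls alone (4 and 3 of 5), and in V3 Ast was read in trained libraries alone (4 of 5). In alpha/beta and R27G01 Pdf was read in 1 trained library each, and in gamma in 2 trained libraries and 1 control library. Leaving out 1 class at a time ended the Pdf call for 5 of 7 classes, with adjusted p up to 0.116 without gamma, and the Ast call for 6 of 7, with adjusted p up to 0.185 without V3. Many of these group values rest on 1 library or on no read.

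Whole brains were compared with whole flies of the same reporter genotype. The labels number both brain libraries 1, with letters A and B, and do not say whether they came from separate brains. Their counts differed by more than counting noise (chi-square per degree of freedom 13.4). Of 9983 genes tested by edgeR, 75.8% were called and 28.2% were higher in brains, and the median gene had a log2 fold change of -1.07. In brains and whole flies, fewer cells of a type and less RNA per cell cannot be told apart. Dh44 had 53.2 and 92.0 CPM in brains, against 1.12, 1.79 and 2.35 CPM in reporter flies (log2 fold change 5.67, SE 0.48, adjusted p 5.16e-06). Pdf had 15.0 and 13.6 CPM in brains, against 3.95, 4.29 and 4.37 CPM in reporter flies (log2 fold change 2.03, SE 0.46, adjusted p 0.00297). Both genes were thus higher in both brain libraries than in every reporter fly library, by 6.73 and 3.10 log2 units relative to the median gene. DESeq2's scaling put that median at -0.90 and changed no direction. capa had no read in brains, against 5.68, 5.92 and 6.74 CPM in reporter flies, and Ast had none, against 3.72, 5.67 and 5.82 CPM. With 3 reads over both brain libraries as the floor (0.832 CPM), capa was at least 7.29-fold lower and Ast at least 6.18-fold lower in brains. These bounds are on CPM and were not set against the median gene, which was itself lower in brains. Both genes passed the expression filter through the reporter flies alone. With no brain read they could only come out lower, so their edgeR adjusted p (0.00216 and 0.0041) adds nothing on direction. Ccap had 3 reads in 1 brain and 23 reads over the reporter flies and did not pass the filter.

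Other genes of the same systems were tested in the same comparison of brains and reporter flies. Over all 9983 genes tested by edgeR, 2815 were called higher and 4757 lower in brains. Of 6 receptors tested, 3 were higher in brains and none lower (median log2 fold change 1.88): Pdfr rose to 73.9 and 78.7 CPM in brains, against 5.21 to 11.2 CPM in reporter flies (log2 fold change 3.39, SE 0.39), and Dh44-R1 and AlstR had log2 fold changes of 3.10 (SE 0.64) and 2.86 (SE 0.39), with edgeR adjusted p of at most 0.00162. Of 9 processing genes, 8 were higher in brains and none lower (median 3.27), with dimm at a log2 fold change of 6.50. Of 32 other precursors tested, 12 were higher and 8 lower, with sNPF (3.94) among the higher and CCHa2 (-5.49), a precursor made mostly in gut and fat body, among the lower. Of 8 clock genes, 3 were higher (tim, Clk and Pdp1) and 2 lower (cry and cwo).

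Across the 72 neuron libraries, the genes whose log2(CPM + 1) varied most like that of capa were Fer3 (Pearson r 0.85, read in 5 libraries), E5 (0.73, in 14) and caup (0.72, in 32), all encoding transcription factors. Without the library highest in capa these values were 0.79, 0.61 and 0.64. For Ccap the nearest genes were Eo (0.69), CG14739 (0.68) and Vha14-2 (0.68), and for Ast CG43789 (0.69), I-3 (0.63) and CG43861 (0.62). For Dh44 no gene exceeded 0.53 (Fem-1), followed by cnc (0.47) and SmF (0.44). For Pdf the nearest were nol (0.64), CG11211 (0.64) and CG8329 (0.62), and without V3 control library 1 these fell to between 0.11 and 0.17. These values describe libraries that share class, depth and preparation, over 11732 genes ranked. By Spearman correlation none of the 3 genes named for capa, Pdf or Ccap stayed among the 3 nearest. Only cnc stayed for Dh44 and only CG43789 for Ast. With 0.1 instead of 1 added to the CPM, none stayed for Ccap and only CG11211 for Pdf. In that setting Fer3 and caup stayed for capa, CG43789 and CG43861 for Ast and all 3 for Dh44.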

How the data were processed

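Reads were counted per gene by the authors and deposited as raw counts, 1 file per sequencing run. The submitters' processing notes name cutadapt, TopHat2, Bowtie, Bowtie2, HTSeq, DESeq2 1.4 and the BDGP5 build. Whether counting used the strand is not given in the sources used here, so reads of Ccap and CG6972, and of Dh44 and Fst, cannot be told apart by strand. Other deposited tables of normalized or compiled values were not used.

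Runs of a library were summed (185 files, 101 libraries) and CPM was taken on the total of gene counts. Training within a class, averaged over 7 classes and class by training were tested with edgeR 4.0.16 in R 4.3.3 (TMM scaling, filterByExpr, quasi-likelihood test, Benjamini-Hochberg adjustment over all genes tested, threshold 0.05). Brains were compared with reporter flies in the same way. DESeq2 1.42.0 was an alternative. No label says that libraries of a group came from separate animals, so p-values measure the spread between these libraries, which may be technical. A bound against 0 reads used a floor of 3 reads, and such floors cover counting error only.

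The 5 genes and the gene lists were chosen with earlier results of these data known. Of the receptor list, 1 gene is counted but not reported here. Other genes named are the remaining receptors, list members that passed a test or had high CPM, and, per gene, the 3 with the highest Pearson r among genes read in at least 5 neuron libraries. Precursors named for their number of carrying libraries, and dimm, Phm and the clock genes, were chosen after their values were seen. Of the rows of a deposited sample sheet, 68 were matched to libraries by name and 33 were not used. The sheet's letters, which the labels do not explain, served only as a block. That block, and leaving out a class, the highest library of a gene or 3-86 trained library 4, were chosen after seeing the data. No sequence table of these genes was used. Gene lengths were not used either, so counts at a common cut of 10 CPM do not rank the genes by level.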

Additional observations from a re-analysis of the deposited data

Results flagged for a closer look

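Within groups of 4 to 6 libraries, 1 library stood far from the others in 29 of 62 pairs of gene and group. Chance flags about 1 in 20 groups of normally spread values, a rate that does not hold for groups with many libraries at 0. Over all genes in the same groups the share was 29.0%, and 56.3% where the lowest library was at 0. The 5 genes were chosen partly for being read in few libraries, so the count describes that choice. Of these, 7 were for capa, 9 for Pdf, 4 for Ccap, 3 for Dh44 and 6 for Ast. In many of them all other libraries of the group were at 0.

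For capa the libraries that stood apart were DAL trained 5 (3.44 CPM), V2 trained 5 (3.73 CPM), V2 control 4 (42.2 CPM), V3 control 2 (1299 CPM), 3-86 trained 4 (14.9 CPM), gamma trained 1 (0.325 CPM) and alpha/beta control 3 (0.292 CPM). For Pdf they were V3 trained 1 (15.9 CPM), V3 control 1 (358 CPM), V2 control 2 (1.17 CPM), 3-86 trained 1 (16.9 CPM), 3-86 control 6 (6.62 CPM), R27G01 trained 3 (5.15 CPM), gamma trained 6 (11.9 CPM), gamma control 5 (0.0810 CPM) and alpha/beta trained 5 (23.5 CPM). For Ccap they were DAL trained 2 (2.92 CPM), alpha/beta trained 4 (7.28 CPM), alpha/beta control 4 (85.3 CPM) and whole-fly library 2 of the gamma driver (0.223 CPM). For Dh44 they were 3-86 control 4 (443 CPM) and whole-fly library 3 of the DAL driver (4.57 CPM) and of the 3-86 driver (0.161 CPM). For Ast they were V2 trained 1 (418 CPM), V2 control 4 (517 CPM), DAL control 3 (67.5 CPM), 3-86 trained 1 (0.192 CPM), 3-86 control 5 (11.5 CPM) and alpha/beta control 1 (98.3 CPM). V2 control 4 was thus the library that stood apart for both capa and Ast in its group.

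By edgeR's test of the 6 class by training terms, Pdf (adjusted p 0.0406) and Ast (adjusted p 0.0406) were called as differing in training effect between classes. Leaving out a single class ended both calls for most choices of class. Many of the group values rest on a single library or on no read.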

How the results depend on the processing

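The number of neuron libraries that carried a gene fell to 12 for capa, 11 for Pdf and 9 for Ccap at 10 reads or more, and was 12, 10 and 9 at or above the CPM that 3 reads give in the shallowest neuron library (1.78 CPM). Mean CPM per group stayed within 1 SD with TMM-scaled library sizes and with alpha/beta control library 6 counted as 2 libraries. Leaving out 1 library of a group cannot move its mean by more than 1 SD, so it is no check here. For capa in V3 control the mean of 270 CPM (SD 576) rested on library 2 (1299 CPM), with the next library at 47.6 CPM. DESeq2's Wald test put Dh44 in V2 past the threshold (log2 fold change -1.92, adjusted p 0.0278).

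Leaving out 1 library at a time gave log2 fold changes for training of 0.49 to 1.33 for Dh44 in DAL, -2.18 to -1.66 for Dh44 in V2, -4.21 to 6.90 for Ast in V2, -1.09 to 4.42 for capa in V3, -2.78 to -1.59 for Dh44 in V3 and -2.48 to -0.08 for Dh44 in 3-86. The ranges were -0.25 to 0.72 for Dh44 in R27G01, -0.42 to 0.17 for Dh44, 2.62 to 4.20 for Ccap and -0.81 to -0.19 for Ast in gamma, and 1.09 to 1.91 for Dh44 and -1.16 to 0.68 for Ast in alpha/beta. Brain differences kept sign and call, at 5.07 to 6.07 for Dh44 and 1.93 to 2.06 for Pdf.

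The adjusted p of Pdf for class by training was 0.0913 without DAL, 0.0606 without V2, 0.0621 without R27G01, 0.116 without gamma and 0.0848 without alpha/beta. That of Ast was 0.0832 without DAL, 0.185 without V3, 0.0577 without 3-86, 0.0552 without R27G01, 0.109 without gamma, 0.0657 without alpha/beta and 0.0540 with no expression filter. The cause was not tested. All genes called numbered 122 with all classes, 129 without DAL, 92 without V2, 202 without V3, 173 without 3-86, 54 without R27G01, 1 without gamma, 9 without alpha/beta and 275 without the 3-86 libraries whose runs do not match.

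With the sample-sheet letter as a replicate block, Ast in V2 turned to 1.56, Dh44 was -1.99 in V2 (adjusted p 0.88) and -0.50 averaged over classes, and no training call for the 5 genes changed, while Mip averaged over classes was -4.25 (adjusted p 0.464). The labels do not say what the letters pair. For the average over classes, 87 genes were called, against 7 with the block, 3 in the additive model, 238 without the mismatched 3-86 libraries and 1193 by DESeq2. Depth limits the rare genes most, since 1 read is worth up to 0.592 CPM.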
